A study of Homo sapiens with 6 samples.

Results

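The metallothionein and zinc-response genes comprised 5 metallothioneins (MT1E, MT1F, MT1G, MT1X and MT2A), the zinc-sensing transcription factor MTF1, the zinc exporter SLC30A1 and the zinc importer SLC39A10. They were picked by gene symbol, without use of the measured values in the rule, though with earlier results of these data known. Of the 8, 7 have a row among the 27776 genes of the deposited count table. MT1G is not analysed here. RNA was measured in MDA-MB-231, an established human triple-negative breast cancer cell line, in 3 libraries titled control and 3 titled khellin. Khellin is a furanochromone from the plant Ammi visnaga, and no dose or exposure time is given in the labels. The sample titles say control where the series' design line names a docetaxel-resistant group, so it is not settled whether the control cells, or both groups, were docetaxel-resistant. Libraries are titled as biological replicates without word on whether cultures were separate, and p-values therefore measure only the spread between these samples, which may be technical.

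Metallothioneins are small, cysteine-rich proteins that bind zinc and copper and also take up cadmium. When free zinc rises, MTF1 binds it, enters the nucleus and attaches to metal response elements (MREs) in promoters, where it raises transcription of metallothionein genes and of SLC30A1. SLC30A1 carries zinc out across the plasma membrane. SLC39A10 brings zinc in, and MTF1 has been reported, in zebrafish and mouse cells, to hold it down. Through MTF1, metallothionein mRNA is widely read as a gauge of the zinc available in a cell, although glucocorticoids and oxidants raise it too. The human metallothionein genes lie in a cluster on chromosome 16.

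MTF1 acts through MREs, so the promoters of the 3 members with at least 2 MRE cores are printed here. Each sequence is a RefSeq window on GRCh38.p14 of 250 bases before and 50 bases after the annotated start, in the direction of the gene, and 5 of the 8 members had such an entry. Capitals mark MRE cores, searched as TGCACNC and TGCGCNC on both strands. The window of MT2A, the most abundant member, is chr16:56608334-56608633 on the plus strand, that of MT1X is chr16:56682220-56682519 on the plus strand, and that of SLC30A1 is chr1:211579112-211579411 on the minus strand.
MT2A: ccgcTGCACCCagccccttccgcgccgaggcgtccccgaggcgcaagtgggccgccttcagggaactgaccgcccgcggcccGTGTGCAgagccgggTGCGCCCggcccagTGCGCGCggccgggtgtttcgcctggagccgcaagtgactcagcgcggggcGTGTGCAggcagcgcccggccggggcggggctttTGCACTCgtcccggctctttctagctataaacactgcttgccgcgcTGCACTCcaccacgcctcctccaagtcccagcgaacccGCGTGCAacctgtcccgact
MT1X: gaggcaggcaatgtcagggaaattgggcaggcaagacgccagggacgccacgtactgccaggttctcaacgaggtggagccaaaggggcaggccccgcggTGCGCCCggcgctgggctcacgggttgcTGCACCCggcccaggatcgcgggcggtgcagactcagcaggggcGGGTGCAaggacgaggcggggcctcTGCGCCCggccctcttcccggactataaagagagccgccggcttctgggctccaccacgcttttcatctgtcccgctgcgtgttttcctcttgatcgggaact
SLC30A1: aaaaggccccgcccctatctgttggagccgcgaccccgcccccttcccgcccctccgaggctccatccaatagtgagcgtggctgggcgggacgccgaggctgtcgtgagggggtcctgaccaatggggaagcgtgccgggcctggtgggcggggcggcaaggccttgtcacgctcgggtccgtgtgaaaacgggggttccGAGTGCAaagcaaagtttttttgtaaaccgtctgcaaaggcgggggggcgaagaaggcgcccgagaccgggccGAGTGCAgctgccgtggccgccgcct

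The MT2A window held 8 MRE cores, spread from 246 bases before the start to 37 bases after it. The MT1X window held 4, between 150 and 47 bases before the start. In SLC30A1 there were 2, of which 1 lay before the start and 1 after it. The MTF1 window held 0, and the 2 overlapping SLC39A10 windows held 0 and 1, the second just after its start. These SLC39A10 windows begin at chr2:195656708 and chr2:195656976, inside the counted gene, whose row starts at chr2:195575977. The sequence at that first start was not searched. Of all 35116 windows of this length, 29.6% held at least 1 core, 8.6% at least 2, 0.601% at least 4 and 0.0484% at least 7. The AP-1 motif TGACTCA was present in the MT2A window alone among the members' windows, and in 4.95% of all windows. It overlapped the antioxidant response element core TGACNNNGC, which was also found in MT1X and SLC30A1 and in 13.3% of all windows. A match describes letters, not binding, and no binding was measured in these libraries.

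**Figure D1:**
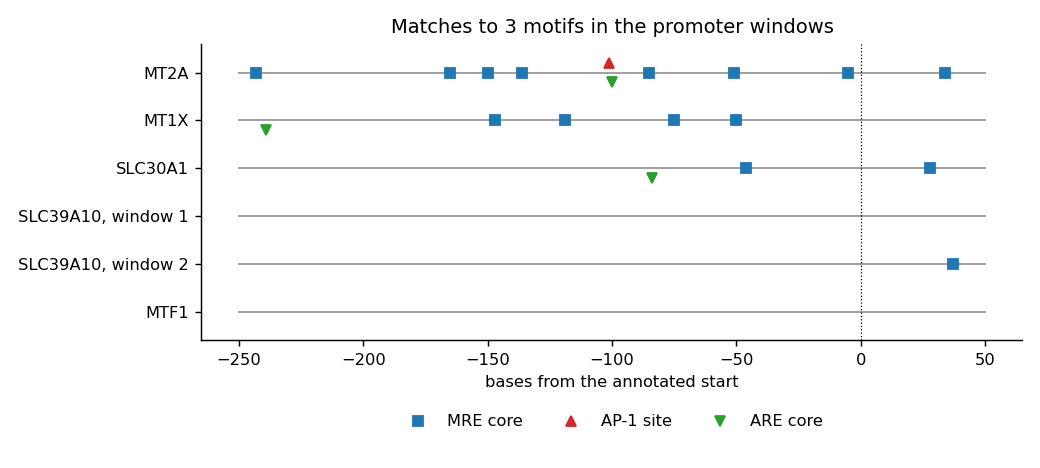
Matches to MRE cores (squares), AP-1 sites (triangles pointing up) and antioxidant response element cores (triangles pointing down) in the promoter windows of 5 members; the horizontal axis is distance from the annotated start in bases, on both strands. MT2A carries 8 MRE cores, MT1X 4 and SLC30A1 2, whereas the MTF1 window carries 0.

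None of the 7 tested members passed the test of a difference between khellin and control libraries. In edgeR's quasi-likelihood fit, 0 of 7 had an adjusted p under 0.05, where 19.4% of all 15865 tested genes did (10.6% higher and 8.82% lower with khellin). At an unadjusted p under 0.05 the count was 2 of 7, MT1F and MTF1, where 33.2% of all tested genes reached that level. DESeq2 called 0, with 1 at the unadjusted level against 27.7% of all genes, and limma-voom called 0, with 3 against 33.3%. The groups did not overlap for the same 2 members, where 38.2% of all tested genes had groups that did not overlap. Levels are in CPM, the usual depth-normalised read count, with library sizes scaled by TMM factors, and fold changes are log2 of khellin over control. In bulk RNA, fewer cells expressing a gene and less RNA per cell cannot be told apart.

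MT2A, usually the most abundant metallothionein of human cells (ENSG00000125148, chr16:56608584-56609497, plus strand), stood at 1275, 1428 and 1853 CPM in the control libraries. In the khellin libraries it stood at 1357, 1416 and 1533 CPM. Control replicate 3 was the highest of the 6 and control replicate 1 the lowest, so the khellin values lay inside the control range. The means were 1519 ± 299.6 and 1436 ± 89.57 CPM (SD, n = 3 each), and the log2 fold change was -0.08 (SE 0.12, edgeR adjusted p = 0.687). Its 95% interval, -0.36 to 0.19, allows anything from a fold of 0.781 to one of 1.14. Each value rests on 37747 to 56024 counts, so counting error is small beside the spread between libraries.

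MT1E (ENSG00000169715, chr16:56625475-56627112, plus strand), an inducible metallothionein, gave 146.8, 156.6 and 201.3 CPM in control and 192.2, 149.8 and 166.1 CPM in khellin libraries. Here the highest khellin library was replicate 1, unlike MT2A, and the groups overlapped. The log2 fold change was 0.01 (SE 0.13, 95% interval -0.28 to 0.30, edgeR adjusted p = 0.966). MT1X (ENSG00000187193, chr16:56682470-56684196, plus strand), another metallothionein expressed in many cell types, gave 37.02, 39.38 and 46.05 CPM in control libraries. The khellin libraries were close together at 39.16, 38.93 and 37.95 CPM, all inside the control range. The log2 fold change of MT1X was -0.08 (SE 0.08, 95% interval -0.26 to 0.10, edgeR adjusted p = 0.55). MT1X is overlapped on the same strand by AC026461.1 in GENCODE release 29, and by no gene with a row in the deposited table. Of the MT1X transcript stretches of 50 bases, 43.6% also occur in other genes, against 7.1% for MT1E and 4.24% for MT2A. Of its 337 shared stretches, 273 occur in AC026461.1, and these can come from that overlap rather than from a second place. At 100 bases, all 223 shared stretches of MT1X occur in AC026461.1, and MT1E and MT2A share 0. The handling of reads that fit several genes or several places is not given in the sources used here, so the MT1X level is uncertain.

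MT1F (ENSG00000198417, chr16:56657731-56660698, plus strand), a metallothionein of low abundance here, had 7, 16 and 16 counts in control and 22, 18 and 29 counts in khellin libraries. Every khellin library was above every control library, from 0.236 to 0.544 CPM in control and from 0.605 to 0.944 CPM with khellin. The log2 fold change of 0.81 (SE 0.32, 95% interval 0.09 to 1.53) missed the threshold, with an edgeR adjusted p of 0.11. Without control replicate 1, the lowest library, it was 0.52. With so few reads, MT1F had the largest SE of the 7 members.

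The 4 metallothioneins were summed to describe the pool as a whole, with no test because the members were chosen. The sum was 1459, 1625 and 2101 CPM in control and 1589, 1606 and 1738 CPM in khellin libraries, a ratio of means of 0.951. It made up 0.144% to 0.205% of all counts in a library. MT2A supplied between 85.4% and 88.2% of the summed CPM in every library, and the lowest share was in khellin replicate 1, where MT1E was at its highest for that group. The ratio of MT2A to MT1E was 7.06 in that library and between 8.68 and 9.45 in the other 5. Per kilobase of the longest coding transcript, mean control levels were 1932 ± 381.2 CPM for MT2A, 230.8 ± 39.82 for MT1E, 75.87 ± 8.704 for MT1X and 0.633 ± 0.251 for MT1F (SD, n = 3). These 4 levels are far apart beside their spread. Divided by the union of all exons, the control levels were 1169, 159.9, 23.02 and 0.231 CPM per kilobase and kept the same order.

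Of 13 further metallothionein genes and pseudogenes, 4 have a row and 1 had enough reads to be tested. MT1A, an inducible metallothionein, gave 1.49, 1.83 and 2.61 CPM in control and 1.59, 1.98 and 2.12 CPM in khellin libraries, with a log2 fold change of -0.06 (edgeR adjusted p = 0.875). MT1M had 1 read over all 6 libraries. MT3, the metallothionein best known from brain, had between 0 and 3 counts in each library. The pseudogene MT1JP had 5, 4 and 5 counts in control and 3, 0 and 0 counts in khellin libraries, which is too few to read a change from.

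**Figure D2:**
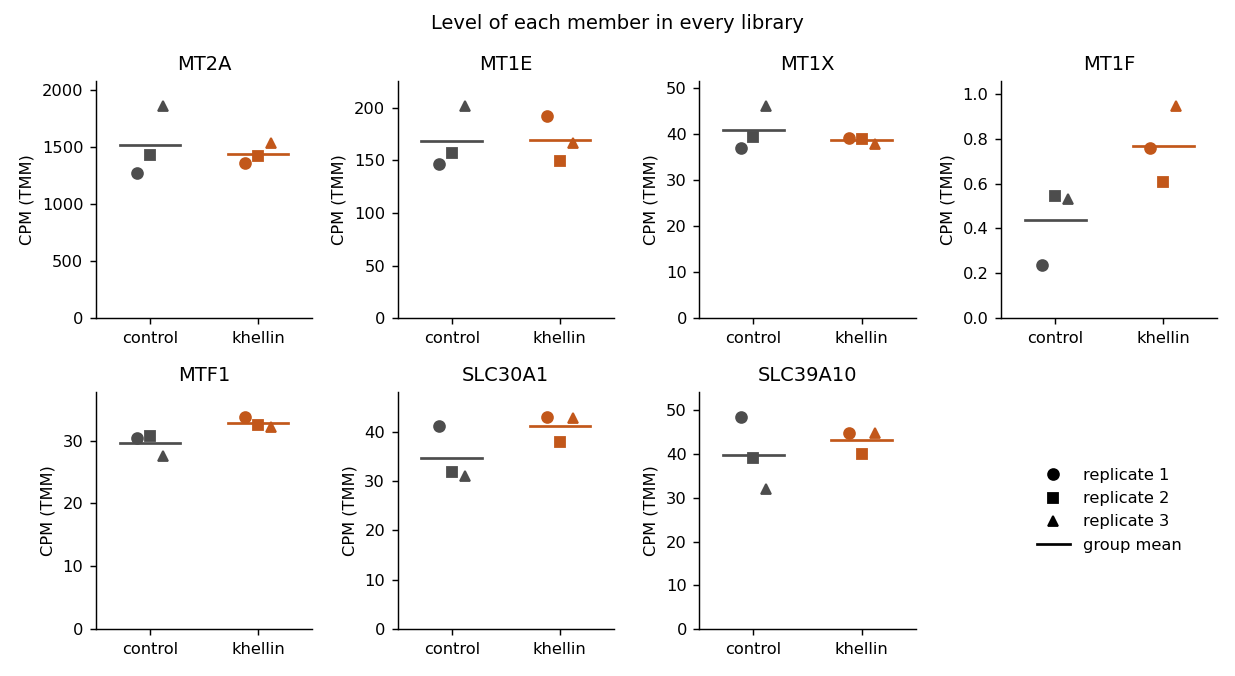
Level of each of the 7 tested members in every library, in TMM-scaled CPM on axes that start at 0; points are single libraries (shape gives the replicate number) and bars are group means, n = 3. For MT2A, MT1E and MT1X the highest library is control replicate 3, and MT1F and MTF1 alone have groups that do not overlap.

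MTF1 (ENSG00000188786, chr1:37809574-37859592, minus strand) gave 30.47, 30.78 and 27.56 CPM in control libraries and 33.72, 32.41 and 32.23 CPM in khellin libraries. The lowest khellin library lay above the highest control library. The difference was small, with a log2 fold change of 0.15 (SE 0.06, 95% interval 0.003 to 0.29), and did not pass the test (edgeR adjusted p = 0.144). Without control replicate 3, the lowest library, it was 0.096, with an interval from -0.033 to 0.23. The mRNA level says nothing of how much MTF1 protein was in the nucleus, which is the step that zinc controls.

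SLC30A1 (ENSG00000170385, chr1:211571568-211579161, minus strand) gave 41.24, 31.80 and 31 CPM in control and 42.99, 37.89 and 42.74 CPM in khellin libraries. Control replicate 1 was as high as the khellin libraries, whereas the other 2 control libraries were lower than all 3 of them. The log2 fold change was 0.25 (SE 0.11, 95% interval -0.003 to 0.50, edgeR adjusted p = 0.156). The call of SLC30A1 depended on the setting. Without control replicate 1, its highest control library, it passed the test at 0.39 (edgeR adjusted p = 0.0026). It did not pass without control replicate 2 (0.19, edgeR adjusted p = 0.362) or control replicate 3 (0.17, edgeR adjusted p = 0.346). Nor did it pass without any khellin library (edgeR adjusted p from 0.141 to 0.329), with DESeq2 (adjusted p = 0.135) or with limma-voom (adjusted p = 0.127). SLC30A1 did pass with an offset for gene length and GC content, at 0.29 (SE 0.06, 95% interval 0.17 to 0.41, edgeR adjusted p = 0.00216). With that offset the control libraries read 37, 32.14 and 33.01 CPM and the khellin libraries 42.04, 40.97 and 41.92 CPM, so the groups no longer overlapped. It stayed past the threshold with that offset when any 1 of the 6 libraries was left out, between 0.25 and 0.35 (adjusted p from 0.000152 to 0.0148), an alternative chosen after seeing the data. With the same offset, 2538 of 15865 tested genes were higher and 2470 lower, against 1681 and 1399 without it.

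SLC39A10 (ENSG00000196950, chr2:195575977-195737702, plus strand) gave 48.47, 39.11 and 31.99 CPM in control and 44.75, 40.04 and 44.95 CPM in khellin libraries. The 3 control libraries span a wider range than the khellin libraries and enclose them. The log2 fold change was 0.12 (SE 0.13, 95% interval -0.19 to 0.42, edgeR adjusted p = 0.587). It was 0.28 without control replicate 1 (edgeR adjusted p = 0.0407) and -0.02 without control replicate 3, so the direction rests on which control library is used. Per kilobase of the longest coding transcript, SLC39A10 (7.34 ± 1.52 CPM) and SLC30A1 (6.34 ± 1.04 CPM) did not differ beyond their spread in control libraries, and MTF1 was lower at 3.71 ± 0.22 CPM (SD, n = 3). Over the union of exons the order of the 2 transporters turned, to 5.76 CPM per kilobase for SLC39A10 and 6.34 for SLC30A1.

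**Figure D3:**
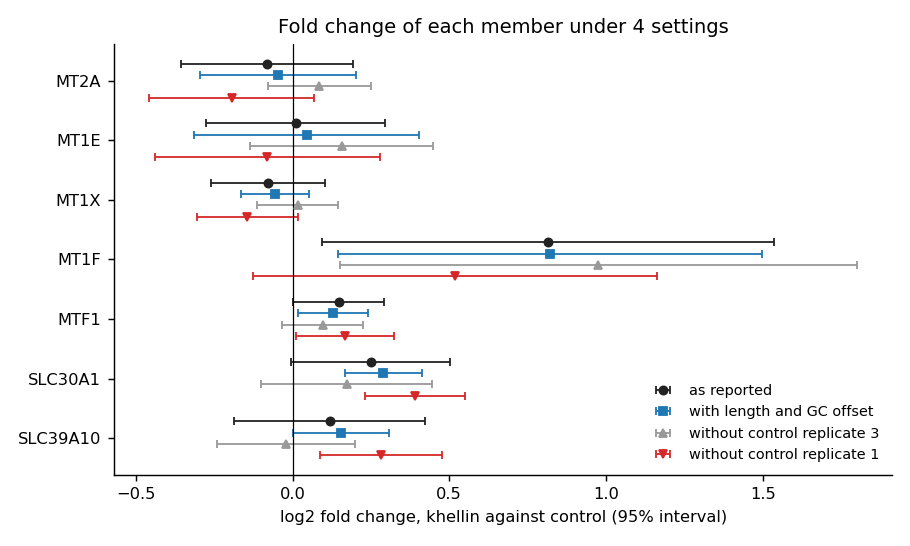
Log2 fold change of each member, khellin against control, with 95% intervals, as fitted with all 6 libraries (circles), with an offset for gene length and GC content (squares), without control replicate 3 (triangles pointing up) and without control replicate 1 (triangles pointing down). The interval of SLC30A1 runs from -0.003 to 0.50 as fitted and from 0.17 to 0.41 with the offset.

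The members fell into opposite patterns among the control libraries, which share a label. MT2A, MT1E, MT1X and MT1A were highest in control replicate 3 and lowest in control replicate 1. In control replicate 3, MT2A lay 0.31 above its own group mean on the log2 scale and MT1X 0.18 above it. SLC39A10 did the reverse, 0.30 above its group mean in control replicate 1 and 0.30 below it in control replicate 3, and SLC30A1 was 0.26 above in control replicate 1. Over the 6 libraries, Pearson's r of log2 CPM was 0.89 between MT2A and MT1X, 0.87 between SLC30A1 and SLC39A10, and -0.94 between MT1X and SLC39A10. These are descriptions over 6 libraries that share their depth and scaling across genes.

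Gene length ran along the same libraries. Over 10888 genes, the deviation of a library from its own group mean had a Spearman correlation with exon length of 0.40 in control replicate 1, 0.24 in control replicate 2 and -0.48 in control replicate 3. In khellin libraries it lay between -0.18 and 0.15. The 93 genes of at most 1000 bases were, in the median, 0.12 below their group mean in control replicate 1 and 0.16 above it in control replicate 3. For the 670 genes above 1000 and up to 2000 bases, the class that holds MT2A, MT1E, MT1X and MT1F by exon union, the medians were -0.10 and 0.13. The deviations of MT2A were larger than those medians, and those of SLC39A10 far exceeded the median of its own class (0.01 and -0.005 for genes above 4000 and up to 8000 bases). With the offset for length and GC content, the coefficient of variation over control libraries fell from 19.7% to 12.5% for MT2A, from 11.5% to 4.93% for MT1X, from 16.4% to 7.61% for SLC30A1 and from 20.7% to 11.1% for SLC39A10. In khellin libraries the SD rose with the offset for MT2A (89.57 to 100.5 CPM), MT1E (21.39 to 25.24), MT1X (0.642 to 0.963) and MT1F (0.170 to 0.185). It fell there for SLC30A1 (2.88 to 0.589 CPM), SLC39A10 (2.78 to 0.276) and MTF1 (0.814 to 0.750). The offset fits length and GC content together, and their separate parts in these falls and rises were not tested. What set the length pattern was not tested.

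**Figure D4:**
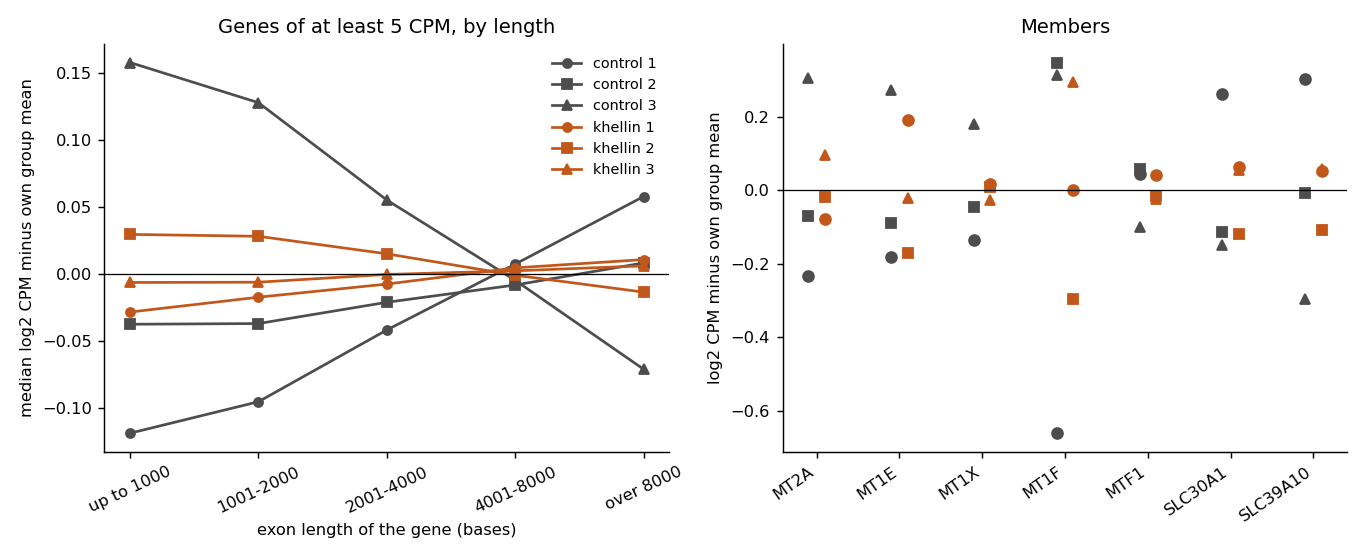
Left, median deviation of log2 CPM from the own group mean against exon length in bases (5 classes, genes of at least 5 CPM), a line per library; right, the same deviation for each of the 7 tested members. Control replicates 1 and 3 run in opposite directions with length, and MT2A and SLC39A10 part in those same 2 libraries.

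Among 10848 genes of at least 5 CPM, TAF15 (r = 0.99), GALK1 (r = 0.99), SEC61B (r = 0.99), BEX3 (r = 0.99) and NDUFB11 (r = 0.98) followed the summed metallothionein level most closely over the 6 libraries. TAF15 codes for an RNA-binding protein, GALK1 for galactokinase, SEC61B for a subunit of the endoplasmic reticulum translocon and NDUFB11 for a subunit of respiratory complex I. The 5 genes were picked for this likeness out of all those searched, so their r is a description only.

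Of the other zinc transporters, 1 in each family passed the test, in opposite directions. Of 7 tested vesicular and exporting transporters, 1 rose and 0 fell, and their median log2 fold change was -0.05, against 0.002 over all tested genes. Of all tested genes, 10.6% were called higher and 8.82% lower. SLC30A6, which with SLC30A5 loads zinc into the secretory pathway, rose from 45.5, 42.2 and 41.32 CPM to 48.4, 50.9 and 50.58 CPM (log2 0.22, SE 0.06, edgeR adjusted p = 0.0312). That call was lost without control replicate 2 and without each khellin library in turn, and with the replicate number as a block (highest adjusted p 0.127). SLC30A7, which moves zinc into the Golgi, had -0.13 (edgeR adjusted p = 0.487) and 0.002 without control replicate 1. TMEM163, a zinc efflux protein, had 0.26 (edgeR adjusted p = 0.134).

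Of 11 other tested SLC39 importers, 0 rose and 1 fell, with a median of -0.02, where 10.6% of all tested genes rose and 8.82% fell. SLC39A13, which moves zinc out of vesicles of the early secretory pathway and is needed for connective tissue, fell from 116.7, 117.6 and 136.5 CPM to 93.22, 98.37 and 95.02 CPM. All khellin libraries were below all control libraries, with a log2 fold change of -0.37 (SE 0.07, edgeR adjusted p = 0.00413). It passed in all 16 alternatives run for it, with adjusted p of at most 0.0287. SLC39A11 had -0.16 (edgeR adjusted p = 0.116), and passed with the length and GC offset (edgeR adjusted p = 0.0388). SLC39A6, the closest relative of SLC39A10 and its partner in a zinc-importing complex, had 0.18 (edgeR adjusted p = 0.15). It passed without control replicate 1 (0.25, edgeR adjusted p = 0.0334) and with the offset (0.22, edgeR adjusted p = 0.0236), and stood at 0.0961 without control replicate 3.

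Metallothioneins also bind copper, and of 13 tested copper-handling genes 1 rose and 1 fell, with a median of -0.09. Among all tested genes, 10.6% rose and 8.82% fell. SLC31A1, the high-affinity copper importer, rose from 67.76, 64.32 and 63.45 CPM to 82.91, 79.78 and 76.95 CPM (log2 0.29, SE 0.05, edgeR adjusted p = 0.00452) and passed in all 16 alternatives. SCO1, which delivers copper to cytochrome c oxidase, fell from 68.13, 68.26 and 65.3 CPM to 60.13, 59.47 and 59.21 CPM (log2 -0.17, edgeR adjusted p = 0.0333). Its call was lost in 7 of 16 alternatives, among them 5 of the 6 that leave out a library (all but control replicate 3). COMMD1, a copper export factor, had -0.27 (edgeR adjusted p = 0.104), and -0.35 without control replicate 1 (edgeR adjusted p = 0.0253).

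Of 11 tested genes listed as targets of MTF1 outside the members, 3 rose and 0 fell, and their median was 0.16. Over all tested genes, 10.6% rose and 8.82% fell. The list was drawn from background knowledge of mouse and human cells, with earlier results of these data known. No link to MTF1 was measured here, and that of KCNN4 and PGF to MTF1 in these cells was not checked. KCNN4, a calcium-activated potassium channel, rose from 13.75, 13.86 and 15.35 CPM to 21.44, 26.02 and 22.53 CPM (log2 0.70, SE 0.09, edgeR adjusted p = 0.000693). PGF, placental growth factor, rose from 1.452, 2.005 and 2.117 CPM to 3.34, 3.16 and 3.71 CPM (log2 0.87, SE 0.15, edgeR adjusted p = 0.00437). Both had groups that did not overlap and passed in all 16 alternatives. SELENOW, a small selenoprotein, rose by a log2 fold change of 0.22 (SE 0.06, edgeR adjusted p = 0.0351), a call lost with the replicate number as a block, without control replicate 2 and without each khellin library.

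Heavy metals and oxidants raise metallothioneins together with heat shock and antioxidant genes. Of 14 tested genes of that kind, 1 rose and 6 fell, with a median of -0.18, where 10.6% of all tested genes rose and 8.82% fell. HMOX1, heme oxygenase, fell from 40.64, 42.92 and 50.62 CPM to 22.24, 23.63 and 23.79 CPM (log2 -0.95, SE 0.09, edgeR adjusted p = 0.000117). OSGIN1 (log2 -0.82), TXNRD1 (log2 -0.74, thioredoxin reductase), SRXN1 (log2 -0.44, sulfiredoxin), HSPA8 (log2 -0.37, the constitutive HSP70) and GCLM (log2 -0.27, of glutathione synthesis) also fell, with edgeR adjusted p of at most 0.013. Leaving out control replicate 2 ended the call of SRXN1 (edgeR adjusted p = 0.0509), and leaving out khellin replicate 2 ended that of GCLM (edgeR adjusted p = 0.0559). ATF3, a stress-induced transcription factor, rose (log2 0.24, edgeR adjusted p = 0.0201), a call lost without control replicate 2 and without each khellin library. The inducible HSP70 genes HSPA1A (log2 -0.17, edgeR adjusted p = 0.331) and HSPA1B (log2 -0.19, edgeR adjusted p = 0.1) did not pass, and as near-identical copies their counts are uncertain. HMOX1, TXNRD1 and several others in this list and the next were known to differ when the lists were drawn up.

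Glucocorticoids induce metallothioneins through the glucocorticoid receptor, so other genes of that response were counted as well. Of 10 tested, 4 rose and 1 fell, with a median of 0.26, where 10.6% of all tested genes rose and 8.82% fell. CDKN1C, a cyclin-dependent kinase inhibitor, rose from 1.82, 1.53 and 2.91 CPM to 4.45, 4.98 and 4.56 CPM (log2 1.15, SE 0.20, edgeR adjusted p = 0.00418). DUSP1, a phosphatase of MAP kinases, rose from 59.72, 60.75 and 67.12 CPM to 111.4, 117.1 and 111.5 CPM (log2 0.86, edgeR adjusted p = 1.92e-05). TSC22D3 (log2 0.54, GILZ) and the clock gene PER1 (log2 0.50) also rose, with edgeR adjusted p of at most 0.00105. ERRFI1, an inhibitor of EGFR, fell (log2 -0.28, edgeR adjusted p = 0.00344). FKBP5, a chaperone often used to read that receptor's activity, had -0.09 (edgeR adjusted p = 0.22).

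**Figure D5:**
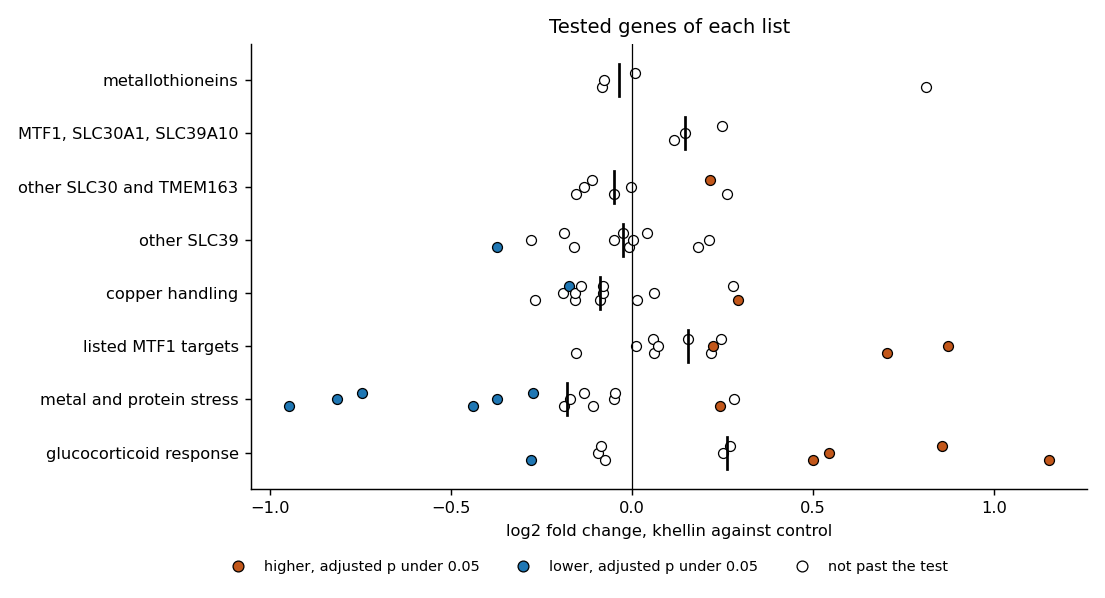
Log2 fold change of each tested gene by list, khellin against control; filled circles passed the edgeR test (orange higher, blue lower), open circles did not, and the vertical bar is the median of the list. The tested members, in the top 2 lines, have open circles only, and the stress list runs from -0.95 to 0.28.

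Depth was even, at 28631578 to 30956610 counts per library (exact permutation p = 0.3, two-sided; 3 against 3 cannot go below 0.1). The 6 markers fixed for MDA-MB-231 summed to between 4018 and 4318 CPM without TMM scaling. Of these, CAV1 was higher with khellin (log2 0.32, edgeR adjusted p = 0.0032), while CD44 (log2 -0.29, edgeR adjusted p = 0.00103) and EGFR (log2 -0.22, edgeR adjusted p = 0.0151) were lower. Markers of fibroblasts and endothelium, of which 6 of 7 have a row, summed to 7.97 to 8.63 CPM in control and 14.2 to 15.2 in khellin libraries. Most of that was COL1A1, with 170 to 193 counts in control and 311 to 348 in khellin libraries. All 3 of these that were tested (COL1A1, PDGFRB and PECAM1) were higher with khellin, while CDH5 had 0 or 1 count. LUM had 4, 7 and 7 counts in control and 3, 2 and 4 in khellin libraries. VWF had 8, 5 and 4 counts in control and 5, 2 and 5 in khellin libraries. Immune markers, of which 4 of 7 have a row, summed to 1.79 to 2.10 CPM and 2.41 to 3.38 CPM. Most of that was CD14, the 1 tested gene, which was higher (log2 0.57, edgeR adjusted p = 0.0403), while PTPRC had 0 to 6 counts, CD68 had 2 to 7 and LYZ had 0 to 2. Luminal markers summed to 222.1 to 242 CPM and 280.4 to 287.3 CPM, most of it from KRT8 and KRT18. Of the 6 tested, KRT8 alone passed (log2 0.32, edgeR adjusted p = 0.00155), and FOXA1 (log2 -0.13) and EPCAM (log2 -0.15) had negative estimates that did not pass. ESR1 had 5 to 13 counts and the epithelial cadherin CDH1 had 0 to 2. Their part in the changes of the gene lists was not tested.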

How the data were processed

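RNA from 3 control and 3 khellin libraries was isolated with TRIzol, and its polyadenylated fraction went into VAHTS Universal V6 libraries, per the labels' protocols. Raw counts of reads per gene make up the deposited table, which the authors made with fastp, HISAT2 and HTSeq, per the submitters' processing notes. Versions, strand setting, handling of reads with several matches, build and annotation release are not given in the sources used here. Of 25378 gene IDs shared with GENCODE release 29, 25361 overlapped it on GRCh38, so that build was inferred. Without a known strand setting, MTF1 and SLC39A10 cannot be parted from opposite-strand genes that overlap them in GENCODE release 29. The overlaps are 691 bases for MTF1, and 1238 and 103 bases for SLC39A10. No gene with a row in the deposited table overlaps either.

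Groups came from the sample titles. Counts were tested with edgeR 4.0.16 in R 4.3.3 (TMM factors, filterByExpr, robust quasi-likelihood test, group as the only term) over 15865 genes, with Benjamini-Hochberg adjustment over all of them and a threshold of 0.05. The biological coefficient of variation was 6.96%, and intervals are 95%. Alternatives were other scalings and filters, DESeq2 1.42.0, limma-voom (limma 3.58.1), the replicate number as a block, an offset for length and GC content (smooth terms per library, mgcv 1.9.3; 96.4% of tested genes had both), each library left out, and a threshold of 0.01. Members, lists and markers were chosen with earlier results of these data known. Genes named were all members, the genes past the test and the 3 with the smallest p in each list, and the 5 genes most like the summed metallothioneins; other listed genes, and markers, were named after their values were seen. Motif positions count from 1 at the start of the gene, with no 0. Fold changes of lists are described by counts and medians, with no list test. A gene of the glucocorticoid list is not reported here and was left out of its counts.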

Additional observations from a re-analysis of the deposited data

How the results depend on the processing

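Across the planned settings, MT1F, MTF1 and SLC30A1 kept a positive estimate, and MT1F and MTF1 stayed short of the threshold; a minimum of 1 CPM in 3 libraries left MT1F untested. MT1E changed sign with RLE size factors (-0.0039) and DESeq2 (-0.0038). Leaving out each library in turn gave log2 fold changes from 0.0963 to 0.18 for MTF1, -0.0905 to 0.16 for MT1E, -0.19 to 0.0849 for MT2A, -0.14 to 0.0162 for MT1X, 0.17 to 0.39 for SLC30A1, -0.0195 to 0.28 for SLC39A10, -0.23 to 0.19 for MT1A and -0.21 to 0.0021 for SLC30A7. The tested members called then numbered 0 to 2, the 2 without control replicate 1 (SLC30A1 and SLC39A10). Genes called higher numbered 919 to 1990, and lower 643 to 1722. Without control replicate 1, 1990 of 16131 tested genes were higher and 1722 lower. With the length and GC offset, SLC30A1 passed at 0.29, making 1 tested member called. In that fit 2538 of 15865 tested genes were higher and 2470 lower, and 28 genes of the lists were called in place of 19. Adding a replicate block to that offset gave SLC30A1 0.29, again 1 member, 2381 genes higher and 2376 lower, and 29 genes of the lists. The replicate block alone called 0 members, 1533 genes higher and 1282 lower, and SLC30A1 stood at 0.26 (edgeR adjusted p = 0.0704). Deviations of libraries with the same number correlated at 0.42, 0.08 and -0.40 between groups. Such mixed values cannot settle whether the numbers pair the samples. With the block alone, MT2A stood at -0.07 with an SE of 0.069 (edgeR adjusted p = 0.556), against an SE of 0.121 without it. An adjusted p under 0.01 left 808 genes higher and 608 lower. In the alternative added after seeing the data, the offset with each library left out, SLC30A1 passed each time at 0.35 and 0.25 (without control replicates 1 and 2), 0.27 (3), and 0.28, 0.30 and 0.28 (without khellin replicates 1, 2 and 3). The number of members called was 1 in each, apart from 2 without control replicate 1, where SLC39A10 passed at 0.23. There MT1E turned to -0.0039, -0.0073 without control replicate 2 and -0.0689 without khellin replicate 1, and MT2A to 0.0566 without control replicate 3. The cause of these shifts was not tested. The low count of MT1F limits its precision.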
